A study of Mus musculus with 6 samples.

Results

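The genes described here are Myc, its partner Max, the repressing members of the same protein network (Mxd1, Mxd3, Mxd4, Mxi1 and Mnt), the related partner Mlx and Txnip, a target of the Mlx branch. They were taken as a list of 9 symbols, and all 9 had a row in a table of 12431 genes. Counts came from splenic follicular B cells, labelled CD21/35- CD23+, that were sorted from adult male mice and kept for 1 h in complete RPMI with no added stimulus. WT cells were Gpr174+/Y and KO cells were Gpr174-/Y, in which tdTomato replaces the coding exon of Gpr174, the X-linked gene of a G protein-coupled receptor. There were 3 WT and 3 KO libraries. Per the design text, 3 animals stood behind each genotype. The question was which of these genes differed between WT and KO cells after this short culture.

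MYC activates genes as a dimer with MAX that binds E-box sequences in promoters. MXD1, MXD3, MXD4, MXI1 and MNT also dimerise with MAX, bind the same sequences and recruit SIN3 and histone deacetylases, so activating and repressing dimers share one partner. MLX pairs with MondoA (Mlxip) and ChREBP (Mlxipl), which act at carbohydrate-response elements, and Txnip, encoding an α-arrestin that binds thioredoxin and limits glucose uptake, is their best known target. In B cells Myc is an early gene of activation, and it is low in resting cells.

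Promoter sequence is shown because the network acts through these DNA letters and because some of its own members carry them. RefSeq promoters (GRCm38.p6, 250 bases before to 50 after the start site) were matched for 8 of the 9 genes. Myc was not among them. All promoters of a gene were searched, and Mxi1 had more than 1. The E-box CACGTG, which is its own reverse complement, was found for 4 of the 8 genes. It was found in 7.15% of 32851 promoters of the same length, a share counted over promoters and not over genes. The sequence CACGAG, a part of the carbohydrate-response element, was searched on both strands. It was found for 2 of the 8 genes and in 6.47% of all promoters. The 30-base windows below run 5′ to 3′ on the gene's strand, with the motif in capitals. The first 4 hold an E-box and the last 2 hold CACGAG.
Max, chr12:76962234-76962263, minus strand: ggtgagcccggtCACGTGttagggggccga
Mlx, chr11:101087238-101087267, plus strand: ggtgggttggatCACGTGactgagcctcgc
Mnt, chr11:74830789-74830818, plus strand: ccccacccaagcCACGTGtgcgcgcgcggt
Mxd4, chr5:34187912-34187941, minus strand: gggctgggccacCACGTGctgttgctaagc
Mxd1, chr6:86669361-86669390, minus strand: ggcaggctgaagCACGAGgcggagttgcga
Txnip, chr3:96557866-96557895, plus strand: actgtgCACGAGggctgCACGAGcctccag

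The Txnip window held CACGAG at 2 places. The Mxd1 window held it at 1 place, which is a part of the carbohydrate-response element alone. The cyclic AMP response element TGACGTCA, searched because GPR174 couples to Gαs, was found for 0 of the 8 genes and in 1.79% of all promoters. Its short form TGACG, contained in the full element, was searched on both strands. The short form was found for 1 of the 8 genes, Mlx, and in 20.8% of all promoters. A match says only that the letters are present in these windows.

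Total counts per library ranged from 8452460 to 10944833. The libraries count the 3′ ends of transcripts, so levels are given as CPM, counts scaled to library size, without division by gene length. The B cell gene Ms4a1, which encodes CD20, was at 1274 to 1413 CPM over the libraries, and Fcer2a, which encodes CD23, at 403 to 571 CPM. Cr2, which encodes CD21/35, was counted at 981 to 1166 CPM although the label names the cells CD21/35-. The 7 measured T cell markers summed to 35.4 to 63.0 CPM per library, of which Lck gave 29.7 to 56.5, and Cd3e stayed at or below 1.59 CPM. The 4 measured erythroid markers, mostly Hbb-bs, summed to 2684 to 4722 CPM in WT and 3017 to 7589 in KO. All 4 were tested and 0 had a log2 fold change above 0, with a median of -0.74. Of them, 1 had an unadjusted p under 0.05 and 0 were called in edgeR. The part of the erythroid markers in the results was not tested. Summed over 7 follicular B markers (Ms4a1, Cd79a, Cd79b, Fcer2a, Cr2, Pax5 and Cd22), the level was 4040 to 4190 CPM in WT and 4487 to 4711 in KO. Of these 7, 3 had an unadjusted p under 0.05, and Cd79b was lower in WT (-0.39, edgeR adjusted p = 0.000358). The 5 measured NK cell markers summed to 7.83 to 14.1 CPM in WT and 6.53 to 7.30 in KO. The 6 plasma cell markers, mostly Irf4, summed to 449 to 529 CPM in WT and 560 to 623 in KO, with Tnfrsf17 at 0 in 3 libraries. Irf4 was the 1 plasma cell marker with an edgeR adjusted p under 0.05, lower in WT. Of the 5 plasma cell markers tested, 3 had a log2 fold change above 0, and the median was 0.02. The 8 myeloid markers (223 to 274 CPM in WT, 231 to 271 in KO) and the 6 marginal zone B markers (941 to 1133 in WT, 950 to 1195 in KO) overlapped between groups. The part of these differences in the results was not tested. Gpr174 itself was at 128 ± 7.43 CPM in WT and 99.95 ± 0.205 in KO (SD, n = 3 each). Reads in KO may come from the part of the transcript that the reporter leaves, so this gene is no check of the labels. WT replicate 2 stood apart, with a root mean square deviation of 0.503 in log2 CPM from the median of all 6 libraries over tested genes, against 0.313 to 0.352 in the other 5 libraries.

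Of the 9 genes, 8 passed the filter on low counts, and Mxd1 was higher in WT than in KO cells, by 1.51-fold. It was the 1 gene of the 8 with an adjusted p under 0.05 in edgeR's quasi-likelihood test, and 0 were lower. Across all 10514 tested genes, 191 passed, which is 1.82%, with 1.3% higher and 0.514% lower in WT. At an unadjusted p under 0.05 there were 2 of the 8, Mxd1 and Txnip. The share of all tested genes at this unadjusted p was not determined. Such counts, here and for the marker and gene lists, therefore cannot be read as more or fewer than usual. DESeq2 and limma-voom each called 1 of them, Mxd1. Over all genes DESeq2 called 252 of the 8093 with an adjusted p, and limma-voom called 172 of 10514. WT and KO values did not overlap for 1 of the 8, against 16.7% of all tested genes. The median log2 fold change (WT over KO) was 0.06 over the 8 genes and -0.00 over all tested genes. In bulk RNA, fewer cells of a type and less RNA per cell cannot be told apart.

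**Figure D1:**
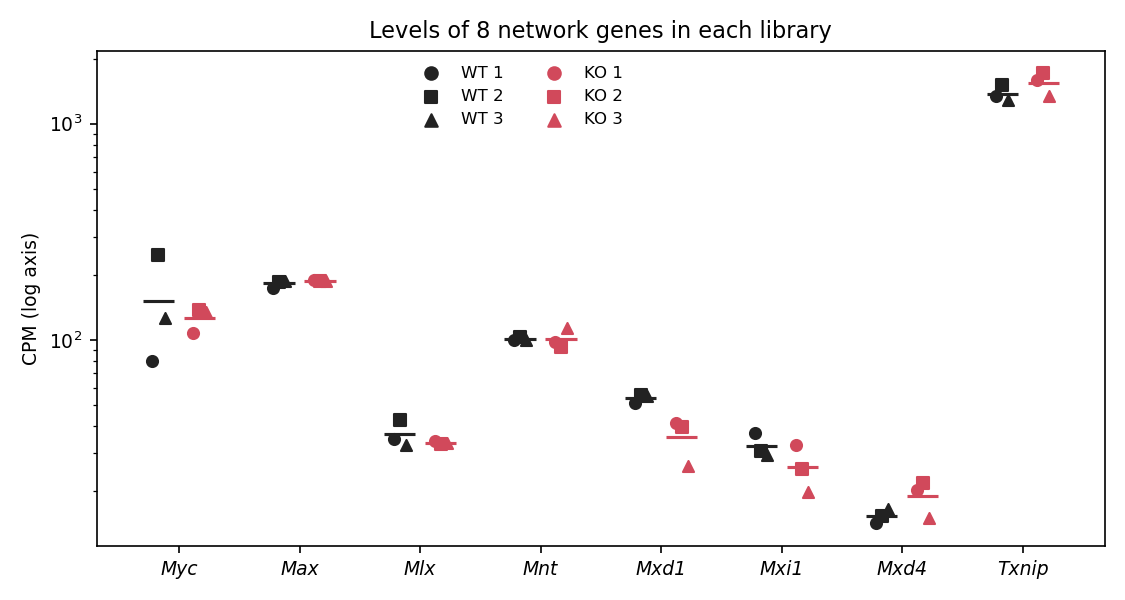
CPM (log axis) of the 8 tested genes in each of 3 WT (black) and 3 KO (red) libraries, with marker shape giving the replicate number and bars giving group means. Mxd1 is the gene whose WT libraries (51.0 to 55.5 CPM) all lie above its KO libraries (26.1 to 41.0 CPM), and Myc spreads from 79.7 to 246 CPM within WT.

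Myc (chromosome 15, 61985391 to 61990374, plus strand, in mm10 by GENCODE vM21) is the activating gene of the network. It was at 79.7, 246 and 126 CPM in WT replicates 1, 2 and 3 and at 108, 137 and 135 CPM in KO replicates 1, 2 and 3. The highest and the lowest values were both in WT, and the KO values lay between them. The WT libraries spanned 3.09-fold and the KO libraries 1.27-fold. Group means were 151 ± 86.1 CPM in WT and 126 ± 16.1 CPM in KO (SD, n = 3 each). The log2 fold change was 0.25 ± 0.47 (SE), with a 95% interval from -1.03 to 1.53 and an edgeR adjusted p of 0.897. The interval holds more than a doubling as well as more than a halving, so a difference of that size was not detectable here. Without WT replicate 2 the log2 fold change was -0.30 (edgeR adjusted p = 0.694). The spread within groups was wider for Myc than for 89.7% of tested genes.

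Max (chromosome 12, 76937269 to 76962201, minus strand) encodes the partner that both kinds of dimer need. It was at 173, 186 and 188 CPM in WT and at 189, 186 and 188 CPM in KO, which makes its 6 values nearly level. The log2 fold change was -0.04 ± 0.08 (95% interval -0.20 to 0.12, edgeR adjusted p = 0.885). Only 1.76% of tested genes varied less within groups. Mlx (chromosome 11, 101087277 to 101092207, plus strand) encodes the partner of MondoA and ChREBP and can also pair with MXD1, MXD4 and MNT. It was at 34.9, 42.6 and 32.6 CPM in WT and at 33.9, 32.9 and 33.2 CPM in KO, and the groups overlapped. Its log2 fold change was 0.14 ± 0.14 (95% interval -0.16 to 0.43, edgeR adjusted p = 0.785).

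Mxd1 (chromosome 6, 86647042 to 86669161, minus strand) encodes MAD1, a MAX partner known from cells that leave the cycle or differentiate. It was at 51.0, 55.5 and 55.1 CPM in WT and at 41.0, 39.7 and 26.1 CPM in KO. Every WT library was above every KO library, and KO replicate 3 was the lowest. The means were 53.9 ± 2.44 CPM in WT and 35.6 ± 8.25 CPM in KO (SD, n = 3 each). The log2 fold change was 0.60 ± 0.15 (95% interval 0.29 to 0.90, unadjusted p = 0.000395, edgeR adjusted p = 0.0285). The direction held when any 1 library was left out, with log2 fold changes from 0.41 to 0.71. The adjusted p rose to 0.259 without KO replicate 3, 0.109 without WT replicate 3, 0.0611 without WT replicate 2 and 0.0502 without KO replicate 2, and it was 0.0396 and 0.0293 without WT or KO replicate 1.

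The other repressing genes gave no call. Mnt (chromosome 11, 74830920 to 74845725, plus strand) encodes a broadly expressed MAX partner that opposes MYC in cycling and resting cells alike. It was at 99.996, 103 and 99.3 CPM in WT and at 97.8, 93.0 and 113 CPM in KO, with a log2 fold change of -0.01 ± 0.10 (95% interval -0.21 to 0.19, edgeR adjusted p = 0.987). The KO values lay on both sides of the WT values. Mxi1 (chromosome 19, 53310518 to 53375810, plus strand), whose product MXI1 is also called MAD2, was at 37.1, 30.6 and 29.4 CPM in WT and at 32.8, 25.2 and 19.8 CPM in KO. The groups overlapped through KO replicate 1, and the log2 fold change was 0.32 ± 0.17 (95% interval -0.04 to 0.68, edgeR adjusted p = 0.491). Mxd4 (chromosome 5, 34173883 to 34187720, minus strand), whose product is MAD4, was at 14.2, 15.3 and 16.5 CPM in WT and at 20.2, 21.8 and 14.9 CPM in KO. KO replicates 1 and 2 were above all WT libraries and KO replicate 3 was not, and the log2 fold change was -0.31 ± 0.20 (95% interval -0.73 to 0.11, edgeR adjusted p = 0.601). Mxd3 (chromosome 13, 55325168 to 55329823, minus strand), known from proliferating cells, had 2, 6 and 5 counts in WT and 0, 2 and 4 counts in KO. It was below the filter, and with 3 counts worth 0.273 to 0.358 CPM no difference was detectable at this depth.

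**Figure D2:**
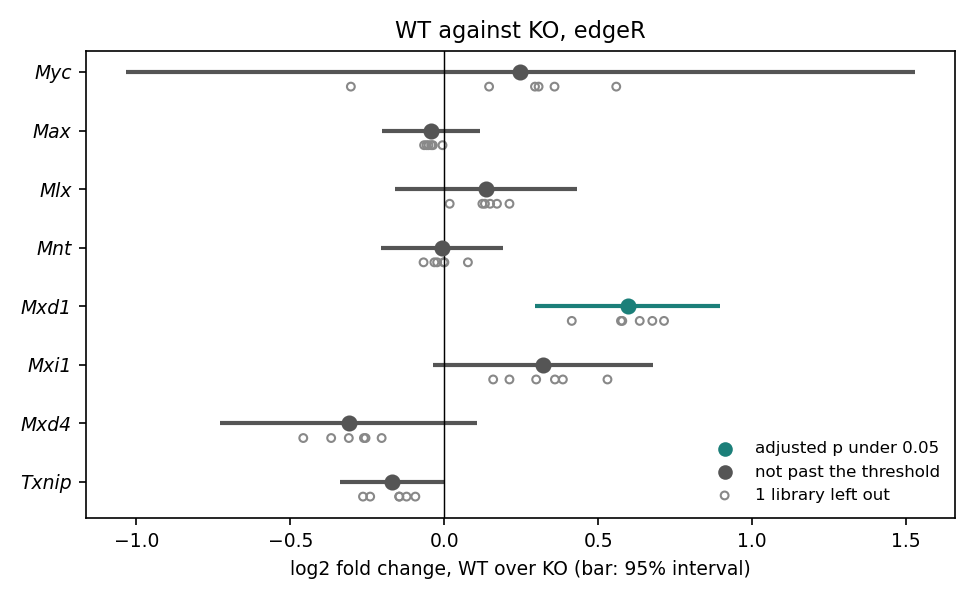
Log2 fold change (WT over KO) of the 8 tested genes in edgeR, with bars for the 95% interval and open circles for the value with 1 library left out. Mxd1 (0.60, green) is the gene with an adjusted p under 0.05, and the bar of Myc, from -1.03 to 1.53, is the widest of the 8.

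Txnip (chromosome 3, 96557957 to 96561883, plus strand) had the highest level of the 8 tested genes, above 99.5% of all tested genes. It was at 1337, 1512 and 1286 CPM in WT and at 1597, 1712 and 1340 CPM in KO. WT replicate 2 was above KO replicate 3, and the groups overlapped. Means were 1378 ± 118 CPM in WT and 1550 ± 190 CPM in KO (SD, n = 3 each). The log2 fold change was -0.17 ± 0.08 (95% interval -0.34 to -0.00), with an unadjusted p of 0.0496 and an edgeR adjusted p of 0.421, so it did not pass. A non-coding gene annotated on the opposite strand, Gm15441, overlaps Txnip, and the use of strand in counting was not stated. Opposite-strand genes also overlap Mlx (Psmc3ip), Mxd3 (Prelid1), Mxd4 (Gm42846) and Mxi1 (AC133451.2 and Gm10197), and same-strand annotations overlap Max (Gm47218) and Mxd1 (Gm44292). Myc and Mnt had no overlapping gene.

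Ordered by mean CPM over the 6 libraries, Txnip (1464) came first, followed by Max (185), Myc (139), Mnt (101), Mxd1 (44.7), Mlx (35.0), Mxi1 (29.1) and Mxd4 (17.1). The ranges of neighbours did not overlap for Txnip and Max or for Mnt and Mxd1. All other neighbours in this order overlapped.

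The balance of repressing and activating transcripts was described as the summed counts of the 5 repressing genes over the counts of Myc in the same library. It was 2.54, 0.832 and 1.60 in WT and 1.78, 1.31 and 1.29 in KO, with means of 1.66 ± 0.856 and 1.46 ± 0.274 (SD, n = 3 each). WT held both the highest and the lowest ratio, in the libraries with the lowest and the highest Myc. The numerator alone was at 202, 205 and 201 CPM in WT and at 192, 180 and 174 CPM in KO. The repressing sum was thus higher in every WT library, and no test was made of it. Mean sums were 203 (WT) and 182 (KO), while the means of Mxd1 alone were 53.9 and 35.6. No other tested repressing gene had all WT libraries above all KO libraries. Mxd1 and Mxi1 had a log2 fold change above 0, and Mnt (-0.01) and Mxd4 (-0.31) were below 0. The sum therefore does not show that the repressing genes were higher in WT as a set. Mxd1 gave 25.2, 27.1 and 27.4% of the repressing counts in WT and 21.4, 22.1 and 15.01% in KO, so its share was lowest in KO replicate 3. Mnt gave 49.4 to 50.2% in WT and 51.0 to 64.8% in KO. The counts of Mxd1 over those of Myc were 0.641, 0.225 and 0.438 in WT and 0.381, 0.290 and 0.194 in KO, and the groups overlapped.

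**Figure D3:**
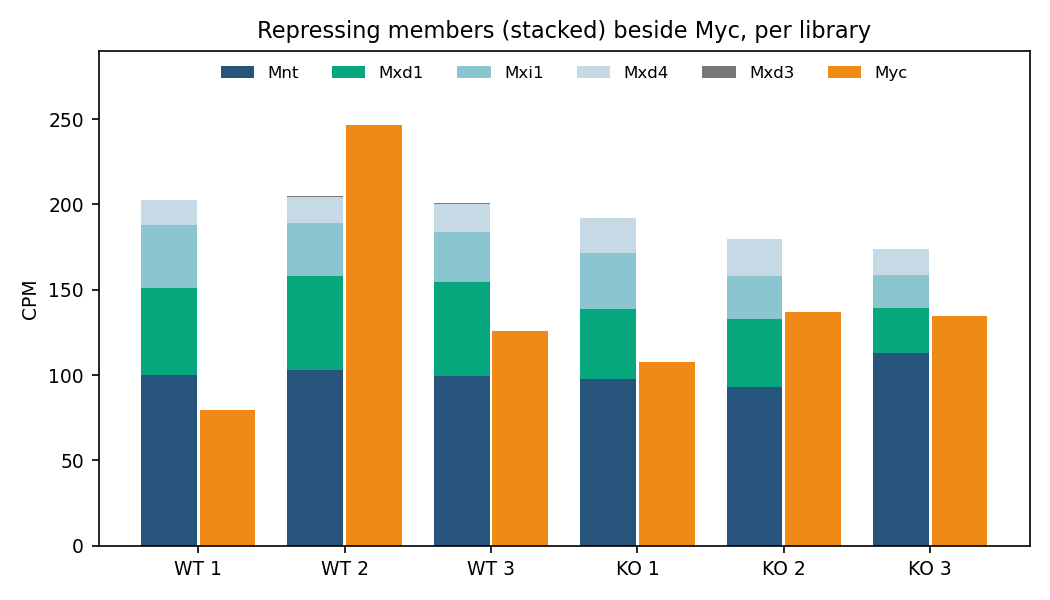
Stacked CPM of the 5 repressing genes beside the CPM of Myc (orange) in each library, on an axis from 0. The stacks reach 201 to 205 CPM in WT and 174 to 192 in KO, and Myc exceeds its stack in WT replicate 2 alone.

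For Myc and Txnip, the genes with the nearest profile were sought by the root mean square distance of log2 CPM over the 6 libraries, each gene centred on its own mean. Candidates averaged 20 CPM or more. For Myc these were Klhl20 (0.205), Yeats2 (0.206), Bhlhe40 (0.218), Etv6 (0.224) and Prpsap2 (0.226). Like Myc, all 5 were highest in WT replicate 2 and lowest in WT replicate 1. Bhlhe40, a basic helix-loop-helix repressor, went from 73.6 CPM in WT replicate 1 to 163 CPM in WT replicate 2. For Txnip they were Ap4b1 (0.0284), Yod1 (0.0457), Cdk4 (0.0560), Ttc9c (0.0586) and 2010001M09Rik, an older symbol of Mzb1 (0.0615). All 5, like Txnip, were above their own mean in KO replicates 1 and 2 and below it in KO replicate 3. Both sets were picked for nearness over these same libraries, so the shared highs and lows follow from the choice. These distances are descriptions over 6 libraries that share depth and handling.

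**Figure D4:**
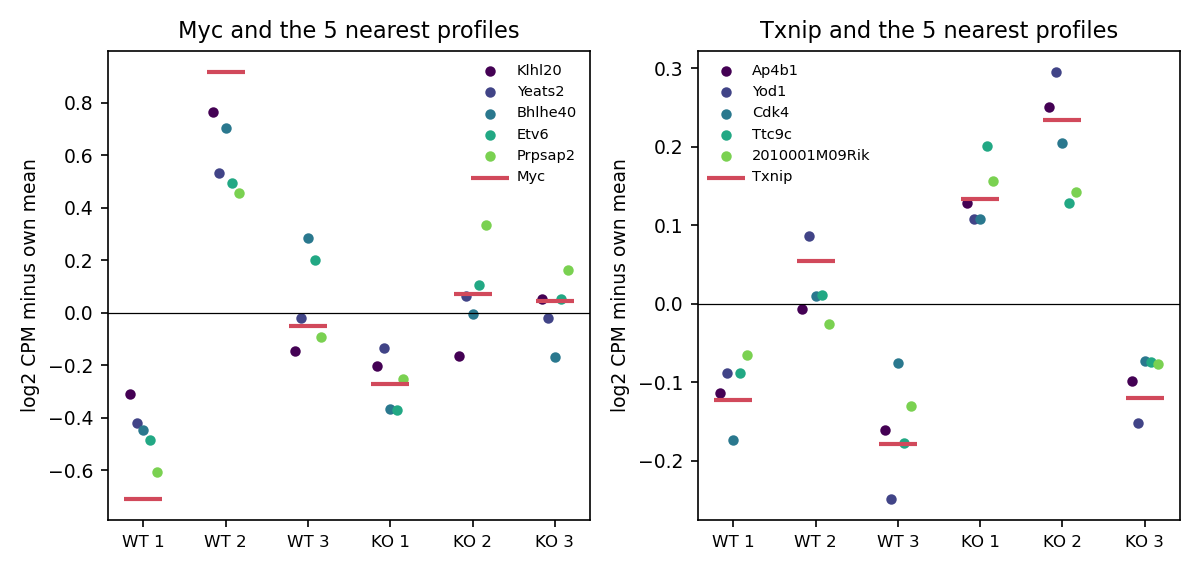
Log2 CPM minus each gene's own mean in 6 libraries, for Myc (left) and Txnip (right) as red bars and the 5 nearest genes of each as points. The Myc set is highest in WT replicate 2, where Myc is 0.92 above its own mean, and the Txnip set is above 0 in KO replicates 1 and 2.

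Genes around the network were read from the same test over all genes. The wider network (MYC paralogues, MondoA, ChREBP and other E-box factors) had 7 of 10 genes tested, 0 called in edgeR, DESeq2 or limma-voom, 1 at an unadjusted p under 0.05 and a median log2 fold change of -0.13. Its gene with the lowest p, Usf2, was at 414, 357 and 451 CPM in WT and at 368, 340 and 349 CPM in KO (0.21, edgeR adjusted p = 0.221). The adjusted p of Usf2 was 0.0278 without WT replicate 2 and 0.288 to 0.532 with any other library left out. It was 0.134 to 0.264 under the alternative settings that kept all libraries. Tfeb, a lysosomal regulator, had a log2 fold change of -0.13 (edgeR adjusted p = 0.747). Of 17 cofactors that MYC or the repressing dimers recruit, 0 were called by any of the 3 tools and 1 had an unadjusted p under 0.05. This was the deacetylase gene Hdac2 (0.32, edgeR adjusted p = 0.398), followed by Zbtb17, the MIZ1 gene (-0.25, adjusted p = 0.515). Of 10 genes of MYC protein turnover, 0 were called by any of the 3 tools and 3 had an unadjusted p under 0.05. They included the phosphatase subunit gene Ppp2r5a (0.23, edgeR adjusted p = 0.296) and the kinase gene Aurka (0.83, adjusted p = 0.375). Both had WT above KO in every library, and groups did not overlap for 16.7% of all tested genes. Aurka was at no more than 6.77 CPM in any library. The medians were 0.06 for cofactors and 0.14 for turnover.

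MYC-induced genes, 44 in all and all tested, had a median log2 fold change of -0.01 with 22 above 0 and 9 at an unadjusted p under 0.05. The values ran from -0.85 for Fbl (edgeR adjusted p = 0.655), a nucleolar gene at no more than 2.64 CPM in any library and named after its value was seen, to 0.46 for Hk2. Tfam and Slc2a1 were called higher in WT by edgeR, and DESeq2 called 3 of the 44 and limma-voom 1. Over all genes the calls were 191 of 10514 in edgeR, 252 of 8093 in DESeq2 and 172 of 10514 in limma-voom. Tfam, a mitochondrial DNA factor, was at 236, 246 and 271 CPM in WT and at 208, 192 and 202 CPM in KO (0.32 ± 0.08, edgeR adjusted p = 0.0211). Slc2a1, the glucose transporter GLUT1, was at 94.6, 83.2 and 84.6 CPM in WT and at 66.3, 66.3 and 68.4 CPM in KO (0.39 ± 0.10, edgeR adjusted p = 0.0432). The call of Slc2a1 was lost in limma-voom and under 3 of the other settings. Of 9 MYC-repressed genes, 7 were tested. Cdkn1a and Gadd45a, the 2 with an unadjusted p under 0.05, were called higher in WT, against 1.3% of all tested genes. Cdkn1a, the cell cycle inhibitor p21, was at 20.1, 21.8 and 20.8 CPM in WT and at 11.0, 10.8 and 8.38 CPM in KO, a 2.08-fold difference (1.05 ± 0.21, edgeR adjusted p = 0.00397). Gadd45a, a growth arrest gene, was at 35.3, 23.0 and 34.5 CPM in WT and at 21.1, 18.3 and 17.4 CPM in KO (0.71 ± 0.18, edgeR adjusted p = 0.0366), and limma-voom did not call it. The median of this list was 0.12. Leaving out 1 library lost the call of Tfam in 4 of 6 fits and of Slc2a1 and Gadd45a in 5 of 6. Cdkn1a lost it in 1, without KO replicate 3 (adjusted p = 0.0529).

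Around Txnip, the MondoA targets and α-arrestins had 5 of 7 genes tested, 0 called by any of the 3 tools, 2 at an unadjusted p under 0.05 and a median of 0.02. Those 2 were the α-arrestin gene Arrdc3 (-0.19, edgeR adjusted p = 0.356) and the hexokinase gene Hk2 (0.46, adjusted p = 0.409). WT was below KO in every library for Arrdc3 and above KO for Hk2, and 16.7% of all tested genes did not overlap. Hk2 was at 21.1, 23.5 and 21.0 CPM in WT and at 19.9, 9.59 and 17.9 CPM in KO. With 1 library left out, its log2 fold change ran from 0.20 (without KO replicate 2) to 0.66 (without KO replicate 1). Of 8 thioredoxin system genes, 7 were tested, 0 were called by any of the 3 tools and 0 had an unadjusted p under 0.05, with a median of 0.11. The lowest p values there belonged to Txnrd2 (-0.37, edgeR adjusted p = 0.556) and Prdx1 (0.11, adjusted p = 0.685). Txnip is also a FOXO target. Of 14 FOXO factors and targets, all tested, Bcl6 and Klf2 were called lower in WT, against 0.514% of all tested genes. The median was 0.06 and 5 had an unadjusted p under 0.05. Bcl6, the germinal centre repressor, was at 163, 191 and 179 CPM in WT and at 291, 295 and 337 CPM in KO (-0.79 ± 0.08, edgeR adjusted p = 2.33e-07), a call that held with any library left out. Klf2, a quiescence and trafficking factor, was at 2151, 2003 and 2205 CPM in WT and at 2555, 2423 and 2482 CPM in KO (-0.23 ± 0.06, edgeR adjusted p = 0.0381), and its call was lost in 5 of 6 such fits.

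**Figure D5:**
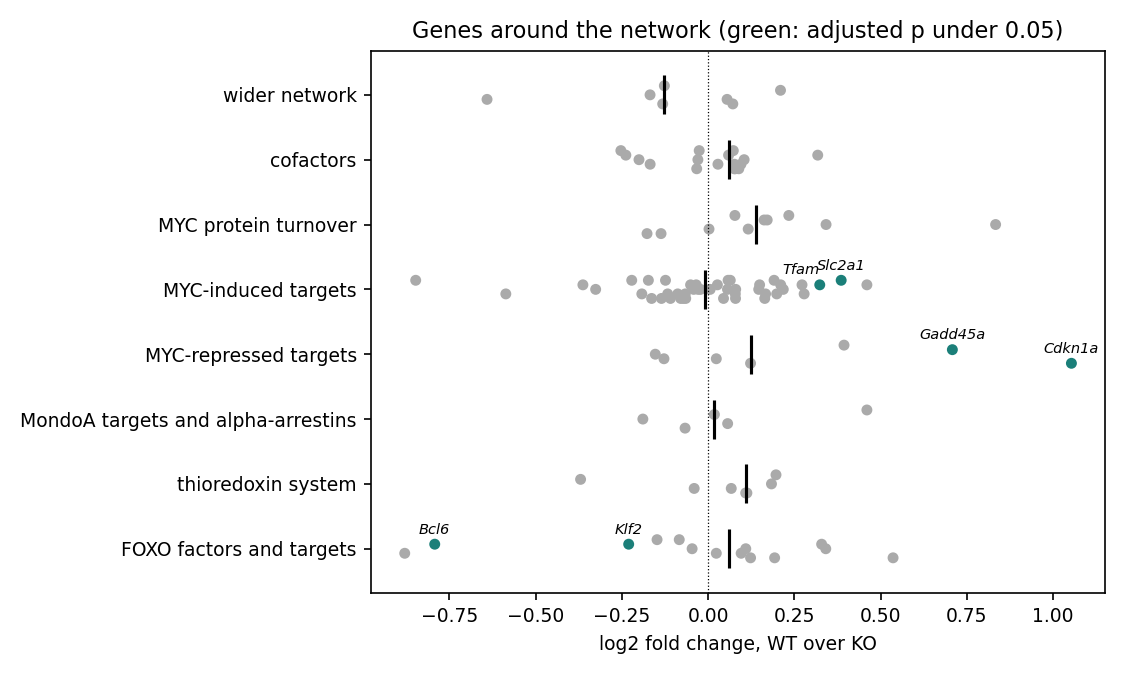
Log2 fold change (WT over KO) of each tested gene in 8 lists around the network, with black bars for list medians. Green marks the 6 genes with an edgeR adjusted p under 0.05: Tfam, Slc2a1, Cdkn1a and Gadd45a, higher in WT, and Bcl6 and Klf2, lower in WT. List medians lie between -0.13 and 0.14.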

How the data were processed

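Follicular B cells of 3 WT and 3 KO mice were sequenced by the authors after 1 h of culture with a 3′ end kit and single-end reads. The authors aligned reads to mm10 with STAR and counted them with HTSeq, with versions, annotation and strand setting not given in the sources used here. The deposited values are raw counts per gene, with no normalization. The smallest row total was 10, and 0 sample columns were unused. Libraries were grouped by their labels.

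Genes were filtered by filterByExpr, scaled by TMM and tested in edgeR 4.0.16 (R 4.3.3) by the two-sided quasi-likelihood test with robust dispersions, without covariates. P values were Benjamini-Hochberg adjusted over 10514 genes with a threshold of 0.05. DESeq2 1.42.0, limma-voom (limma 3.58.1), other scalings, filters, a replicate block and leaving out each library were alternatives. Code was tested on simulated data. Floors (3 counts) cover counting error only, since the libraries carry no molecular identifiers. A chi-square of counts over genes found no copies among the libraries within each group.

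The 9 genes and all lists were chosen with earlier results of these data known. Named list genes were those past the threshold or, where a list had fewer than 2, its 2 lowest p values. Positions are from GENCODE vM21 and promoters from RefSeq GRCm38.p6. Of the follicular B markers, 1 gene is not reported here, and the sum over the others was added after the data were seen.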

Additional observations from a re-analysis of the deposited data

How the results depend on the processing

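Under DESeq2, limma-voom, other scalings, other filters and ordinary dispersions, 170 to 252 genes were called against 191, and Mxd1 was the 1 called gene of the network in each (adjusted p 0.0147 to 0.0424 over these and the replicate block). Leaving out 1 library gave 91 to 183 calls, with 113 without KO replicate 2 and 91 without KO replicate 3, and 0 to 1 network genes called. The log2 fold change of Myc then ran from -0.30 to 0.56, turning without WT replicate 2, and that of Mnt from -0.067 to 0.077, turning without WT replicate 3 (0.00031) and without KO replicate 3 (0.077). The cause was not tested. The adjusted p of Txnip was 0.153 to 0.436 under the settings that kept all libraries and 0.156 to 0.825 with 1 left out. The ratio of repressing genes to Myc without Mnt was 0.836 ± 0.436 in WT and 0.654 ± 0.209 in KO (SD, n = 3 each). WT held both the highest (1.29) and the lowest (0.414) of these ratios, and the groups overlapped. With Mnt in the sum, leaving out 1 library gave ratios from 1.21 to 2.07 in WT and 1.30 to 1.55 in KO. WT and KO share replicate numbers, and deviations of same-numbered libraries correlated at 0.050, 0.014 and 0.043, so the numbers were not taken as pairs, although each library correlated best with its own number. With the replicate block 281 genes were called, 1 of them in the network. Mxd3, tested with no filter, had a log2 fold change of 1.21 ± 1.55 (edgeR adjusted p = 0.854).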
